A study of Mus musculus with 60 samples.

Results

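Metallothioneins are small cysteine-rich proteins that bind zinc and copper ions. Mt1 and Mt2 are made in most tissues and are induced by metals through the transcription factor MTF-1, and also by glucocorticoids, cytokines and oxidative stress. Mt3 is a form of the brain, known as growth inhibitory factor, and binds zinc in neurons and astrocytes. The probe sets of Mt1, Mt2 and Mt3 were followed here in heart, gastrocnemius muscle and neocortex. The members were all probe sets whose single gene symbol is Mt1, Mt2 or Mt3, which gave 4 probe sets of 34945 with 1 symbol and 3 genes of 18193. The family was selected on its differences between diets and controls in these same arrays, so these differences are given as a description, with their SE and no verdict of a test.

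The 60 Affymetrix whole-genome expression arrays measured RNA of male B6C3F1 hybrid mice, with 5 arrays per tissue and group labelled as biological replicates. Young controls were 5 months old. The other groups were 30 months old and had been fed since 14 months of age the control AIN93M diet (old control), a calorie restricted diet whose restriction the labels give as 40% (old CR), or the control diet with resveratrol at 4.9 mg per kg body weight per day (old resveratrol). The weekly energy rations in the study's methods amount to a smaller restriction than the labels give. No group carries a transgene or a deletion, and whole tissue was used, so that a change in the share of a cell type and a change in RNA per cell cannot be told apart. The signals are linear values in arbitrary units, scaled by the authors to a 2% trimmed mean of 500 on every array. Differences are in log2 units, with the SE of a limma fit of the 4 groups of a tissue over all genes. A gene is said to pass when its p value, adjusted by the method of Benjamini and Hochberg across the 13285 genes tested in heart, 12831 in muscle or 13057 in neocortex, is under 0.05. Each tissue held its own markers. The summed signal of 7 cardiomyocyte genes was 345116 to 559930 in heart, against 26238.5 to 65045.5 in muscle and at most 873 in neocortex. That of 7 fibre genes was 262098 to 550472 in muscle, against 39610.3 to 80287.3 in heart and at most 6893.62 in neocortex. That of 7 neuronal genes was 76394 to 105436 in neocortex against at most 5515 in the other tissues.

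The metallothionein genes lie side by side on mouse chromosome 8, in the order Mt4, Mt3, Mt2 and Mt1. The sequence before the start of Mt2 is shown because Mt2 was the member that was higher under both diets in all 3 tissues, and that of Mt3 because Mt3 was far lower under both diets in neocortex. Both are the 250 bases before the annotated start on the plus strand, from RefSeq on GRCm38.p6, with the metal response element core (TGCACNC or TGCGCNC, on either strand) in capitals. Of Mt1 only 30 bases around its single match are shown, because the window of this gene overlaps the annotated span of the gene itself.
Mt2, chr8:94172368-94172617: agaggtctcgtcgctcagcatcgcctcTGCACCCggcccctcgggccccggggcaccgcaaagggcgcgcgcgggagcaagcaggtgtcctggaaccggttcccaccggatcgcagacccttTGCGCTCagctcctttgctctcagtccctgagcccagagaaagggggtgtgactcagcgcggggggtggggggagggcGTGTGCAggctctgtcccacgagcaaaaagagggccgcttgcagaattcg
Mt3, chr8:94152357-94152606: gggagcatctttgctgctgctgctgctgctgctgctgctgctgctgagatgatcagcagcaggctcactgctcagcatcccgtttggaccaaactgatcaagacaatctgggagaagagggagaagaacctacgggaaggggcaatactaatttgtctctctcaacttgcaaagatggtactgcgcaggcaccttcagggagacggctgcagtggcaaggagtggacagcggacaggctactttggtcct
Mt1, chr8:94179055-94179084: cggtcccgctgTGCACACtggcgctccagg

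Mt2 held 3 matches, at positions -223 to -217, -128 to -122 and -50 to -44 from the start, the last one on the minus strand. Mt3 held 0. The window of Mt1 held 1 match, at -23 to -17, counted from a start that lies inside the annotated span of the gene. This match thus lies within that span, and its count is not set against that of Mt2. Of 32817 promoter windows of the same length, 21.4% held at least 1 match and 1.26% held at least 3. The Mt2 window was 67.6% G and C, against a median of 52.4% over all windows, and these shares are not matched for that. The core of the antioxidant response element (TGACNNNGC, either strand) was found once in Mt2, at -79 to -71, and in 10.2% of all windows. The glucocorticoid half-site TGTTCT was in none of the 3 windows and in 16.1% of all windows. These matches overlap none of each other. They describe letters within this window alone, and sites further up or behind the start were not searched.

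Mt1 is measured by 2 probe sets, of which the brighter one represented the gene. In heart its signal on the 5 arrays was 8570.3, 16604, 16284, 17003 and 16424 in young controls and 14987, 14632, 13522, 27816 and 14411 in old controls. Under CR it was 17515, 22101, 18866, 24909 and 22809.6, and under resveratrol 18698, 21276, 19373, 16647 and 12151. All groups overlapped, and 1 low array of the young and 1 high array of the old controls stood apart from their groups. The difference was 0.18 (SE 0.19) with age, 0.36 under CR and 0.08 under resveratrol, each against old controls for the diets. Without old control replicate 4, the high array, the difference under CR was 0.55.

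In muscle Mt1 was lower than in the other tissues and differed most between groups. The arrays gave 1194, 1586, 1098, 925 and 892 in young controls and 1181, 1279, 1223, 1609 and 1807 in old controls. The CR arrays gave 3896, 2335, 6007, 3708 and 3718, all above every old control, and the resveratrol arrays 2421, 1683, 2774, 3920.4 and 1871, of which 1 lay within the old controls. Mt1 was 2.69-fold as high under CR as in old controls (1.43, SE 0.23) and 1.73-fold as high under resveratrol (0.79, SE 0.23). The diets differed from each other by -0.64, resveratrol minus CR, and the ages by 0.33. Without resveratrol replicate 4, the highest of its group, the difference under resveratrol was 0.62.

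In neocortex Mt1 hardly varied. The arrays of young controls read 9622, 8946, 7562, 7999 and 7263, and those of old controls 8283, 8887, 8126, 8137 and 8466. The CR arrays read 9776, 7169.6, 8797, 10340.3 and 9736 and the resveratrol arrays 8465, 9473, 7586, 8529 and 7210.4. All 4 groups overlapped, and the differences were 0.02 (SE 0.09) with age, 0.12 under CR and -0.03 under resveratrol.

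The other probe set of Mt1 was dim, at 5.01 to 230.0 over all arrays, and was above the signal minimum of the tests on 13 of 20 arrays in heart, 8 in muscle and 13 in neocortex. Its group means moved up under CR in heart (from 54.4 ± 48.5 to 123 ± 71.8, SD, n = 5), in muscle (from 40.0 ± 26.4 to 82.4 ± 33.7) and in neocortex (from 69.4 ± 30.2 to 103 ± 28.9), and the groups overlapped each time. With age it differed in heart by -1.37, where the bright probe set gave 0.18.

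Mt2, the close relative of Mt1, was higher under both diets in every tissue. In heart the young controls gave 979.9, 1945, 1616, 1785 and 1621 and the old controls 1336, 1502, 1420.1, 1960.4 and 1648, so that age made a difference of only 0.01 (SE 0.17). The CR arrays gave 2917, 2588, 3057, 3159.9 and 3127, all above every control array. The resveratrol arrays gave 2504, 4078, 2873, 2473 and 1885, of which 1 lay within the old controls. Mt2 was 1.90-fold as high under CR (0.93, SE 0.17) and 1.72-fold as high under resveratrol (0.78, SE 0.17), and the diets differed by -0.15.

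In muscle all old controls of Mt2 (947, 808, 1314, 1679 and 968) lay above all young controls (677, 607, 796, 562 and 598). The difference was 0.78 (SE 0.22). The CR arrays, at 2937, 2600.4, 4649.9, 3552 and 2652, and the resveratrol arrays, at 2319.6, 1859, 3355, 3471 and 1779, lay above all old controls. Mt2 was thus 2.90-fold as high under CR (1.54, SE 0.22) and 2.23-fold as high under resveratrol (1.15, SE 0.22). The diets overlapped and differed by -0.38.

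In neocortex Mt2 read 2110.1, 2689, 3185, 3416 and 2477 in young controls and 2639, 2302, 2212, 2262 and 2222 in old controls, a difference of -0.24 (SE 0.11). All CR arrays (3730.5, 5143, 4570.3, 4409 and 4478) and all resveratrol arrays (3948, 4593, 3665, 4616 and 4458) lay above all controls of either age. The difference from old controls was 0.94 (SE 0.11, 1.91-fold) under CR and 0.87 (SE 0.11, 1.83-fold) under resveratrol. The 2 diets differed by -0.07.

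Mt3 ran the other way. In neocortex the young controls read 8803, 11159, 10894, 11876 and 8985 and the old controls 10312, 11260.3, 11628, 10777 and 10028, and the ages overlapped with a difference of 0.07 (SE 0.15). The CR arrays read 1732, 2754, 2857, 2406 and 2341 and the resveratrol arrays 2383, 2593, 2727, 4730.4 and 3890.1, and none reached the lowest control array. Mt3 was 4.53-fold lower under CR (-2.18, SE 0.15) and 3.42-fold lower under resveratrol (-1.78, SE 0.15). Among all 13057 genes these were the 5th largest negative difference under CR and the 7th largest under resveratrol. The diets overlapped, and resveratrol minus CR was 0.40. In heart (12.5 to 221) and muscle (4.15 to 96.0) Mt3 was near or under the signal minimum of the tests, above it on 9 and 5 of 20 arrays, and its mean was below that minimum in both, so that it was not tested there.

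**Figure D1:**
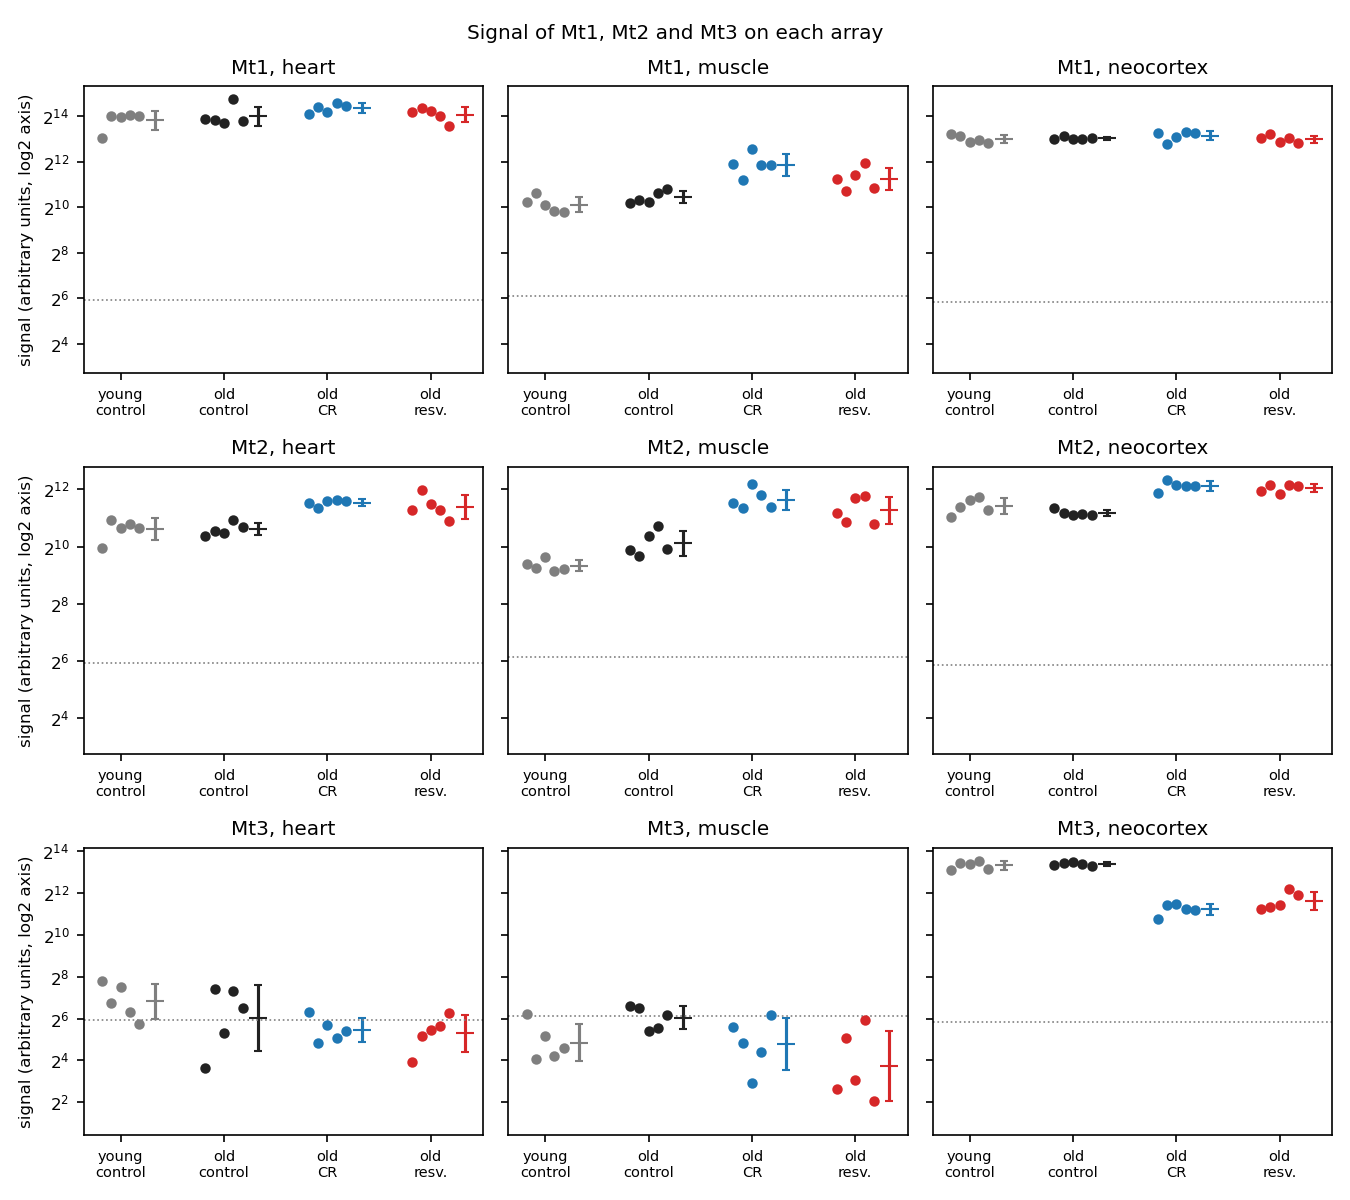
Signal of Mt1, Mt2 and Mt3 on a log2 axis, by tissue (columns) and group. Points are the 5 arrays of a group, bars beside them the mean ± SD of log2 signal, and dotted lines the signal minimum of the tests in that tissue. Mt2 is higher under both diets in each tissue, with old control means of 1573 in heart, 1143 in muscle and 2327 in neocortex, and Mt3 in neocortex drops from a mean of 10801 to 2418 under CR.

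Ordered by level, Mt1 was highest in heart, where the group means ran from 14977 ± 3592 in young controls to 21240.0 ± 3008 under CR (SD, n = 5), then in neocortex (8253 ± 886 to 9164 ± 1245) and lowest in muscle (1139 ± 279 to 3933 ± 1319). Every array of heart and of neocortex was above every array of muscle. Heart and neocortex overlapped, and among the 11 pairs of neighbours in the order of the 12 groups only neocortex under resveratrol and muscle under CR did not overlap. Mt2 was highest in neocortex under CR (4466 ± 503) and lowest in muscle of young controls (648 ± 92.7), and 9 of 11 neighbouring pairs overlapped. With Mt3, every array of neocortex was above every array of heart and muscle, and no size is given for this difference, since Mt3 was below the signal minimum on average in both. These levels compare tissues whose arrays were brought to the same trimmed mean, and no member is set against another.

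**Figure D2:**
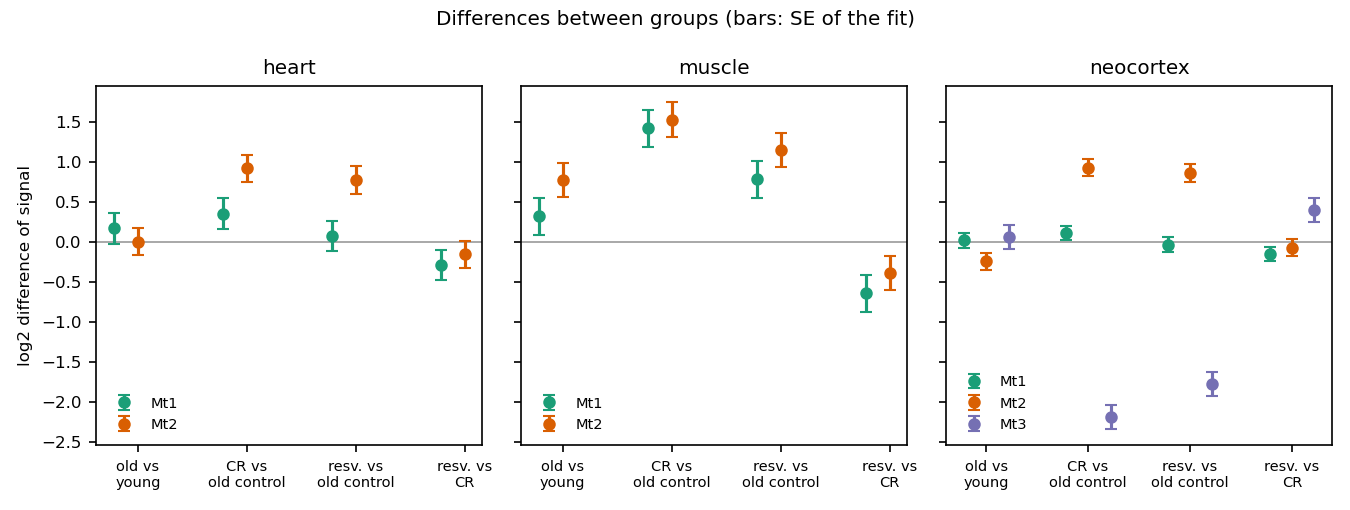
Log2 differences of the members between groups in each tissue, with the SE of the limma fit as bars. The points describe the differences that chose the family. Mt2 lies above 0 for both diets in each tissue (0.78 to 1.54), Mt1 lies highest in muscle (1.43 under CR), and Mt3 lies below 0 in neocortex (-2.18 and -1.78).

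The number of members that passed is given against all genes, and nothing is read from it, since these differences chose the family. In heart 1 of 2 tested members, Mt2, was higher under each diet, where 7.94% of all genes rose and 14.1% fell under CR and 7.08% rose and 10.5% fell under resveratrol. In muscle both tested members were higher under each diet, with 17.5% of all genes rising and 13.6% falling under CR and 9.42% rising and 9.26% falling under resveratrol. In neocortex 1 of 3 members was higher and 1 lower under each diet, and among all genes 13.1% rose and 17.5% fell under CR and 12.3% rose and 13.9% fell under resveratrol. With age no member passed by limma (1 in muscle and 1 in neocortex had an unadjusted p under 0.05, and 0 passed by the test of the study's methods after adjustment), and the shares of all genes that rose and fell were 7.05% and 3.79% in heart, 0.257% and 0.171% in muscle and 1.08% and 0.383% in neocortex. Between resveratrol and CR none passed by limma or by that test (1 in muscle and 1 in neocortex at an unadjusted p under 0.05), with 2.57% and 1.43% in heart, 0.304% and 0.257% in muscle and 5.62% and 3.66% in neocortex. The diet comparisons of a tissue share their old controls.

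Technical measures moved with some groups, and their part in these values was not tested. In muscle, poly-A transcripts spiked into the RNA read higher on every array of both diets (9.16 to 10.6 in mean log2 signal) than on every control array (6.40 to 8.10), so the diets and the handling of the RNA cannot be told apart there. In heart the 3′ minus 5′ difference of beta-actin, which grows as RNA degrades, was 1.26 to 1.66 in old controls and 0.61 to 0.95 in the other groups. In neocortex this measure was 0.45 to 0.60 in old controls, 0.66 to 0.77 under CR and 0.76 to 1.01 under resveratrol. The spiked-in transcripts there read 8.49 to 9.25 in old controls and 9.46 to 10.04 under resveratrol, without overlap. CR (8.48 to 9.58) overlapped both. In muscle the 3′ minus 5′ difference of Gapdh ran from -0.22 to 3.23 in old controls. It was -0.28 to 0.19 in young controls and -0.30 to -0.23 under each diet. The beta-actin difference overlapped between all groups in muscle. For Gapdh in heart the 3′ minus 5′ difference was -0.08 to 0.25 in old controls and -0.28 to -0.14 in the other groups. The Gapdh difference in neocortex overlapped between all groups, with -0.48 to -0.34 in old controls, -0.44 to -0.36 under CR and -0.45 to -0.32 under resveratrol.

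Markers of other cell types moved in heart and muscle too. Of 13 lists of cell type markers, the summed signal on all CR arrays lay above all old controls for 7 and below them for 1 in heart, and above for 2 and below for 1 in muscle. Under resveratrol 4 lay above in heart, and 2 above and 1 below in muscle, and in neocortex the sums of all lists overlapped under both diets. The lists above old controls under CR included oligodendrocyte and choroid plexus lists in heart, and were the astrocyte and atrial lists in muscle. Of 4 tested oligodendrocyte genes 0 passed in heart under CR, and the liver and choroid plexus lists share Ttr. These counts of lists are therefore not read as shifts of the cell types named. In heart the summed signal of 5 liver genes, of which Alb (4.06) was the most raised, was 507 to 739 in old controls and 2830.4 to 5048 under CR. There 4 of 4 tested liver genes rose under CR, where 7.94% of all genes rose. On resveratrol replicates 1 to 5 the liver sum was 5673, 1379, 699, 729 and 729.6, beside the Mt2 signals of 2504, 4078, 2873, 2473 and 1885.

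Macrophage genes rose 6 of 10 in heart under each diet, where 7.94% of all genes rose under CR and 7.08% under resveratrol. These shares apply to the other marker lists of heart too, and nothing is read from the counts. The macrophage sums were 12247 to 17039 in old controls, 19674 to 23991 under CR and 17445 to 26126 under resveratrol. Fibroblast genes rose 3 of 7 there under CR, with sums of 44382 to 51335 against 17817 to 38159 in old controls, and 4 of 7 under resveratrol, with 38025 to 50940. Adipocyte sums were 26362 to 36201 in old controls, 42972 to 51857 under CR and 38817 to 53804 under resveratrol, and red blood cell sums were 1858 to 3153, 5535 to 22607 and 3369 to 7982. The 6 markers of the atrial chamber rose 6 of 6 under resveratrol, with sums of 168996 to 212099 against 73093 to 160308 in old controls, and 4 of 6 under CR, with 150044 to 194504. In muscle 5 of 8 endothelial genes fell under each diet, while 1 rose under CR and 0 under resveratrol. Among all muscle genes 17.5% rose and 13.6% fell under CR, and 9.42% rose and 9.26% fell under resveratrol. Pecam1, 1 of the endothelial genes that fell, gave -2.29 under CR. Macrophage genes in muscle had sums of 7178 to 13801 under CR and 7824 to 16329 under resveratrol against 5763 to 7592 in old controls. Signals under 1 had been set to 1, and no gene of these lists was at that floor on all arrays of a tissue. In neocortex the lowest adipocyte value was at the floor of 1, and 0 red blood cell genes were tested. The part of these lists in the levels of Mt1 and Mt2 was not tested.

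Whether members varied together among arrays of the same group does not depend on the differences that chose them. The deviation of each array from its group mean was compared over the 20 arrays of a tissue, with 100000 permutations within groups, two-sided, and adjustment over 11 relations. In heart Mt1 and Mt2 deviated together (Pearson r = 0.81, permutation p = 0.00049, adjusted p = 0.00539, Spearman rho = 0.81, p = 0.00021, adjusted p = 0.00231), and 16 of 20 arrays had deviations of the same sign. Without the 2 arrays farthest from the median of Mt1, old control replicate 4 and young control replicate 1, r was 0.73 (permutation p = 0.0138). In muscle r was 0.65 (permutation p = 0.00673, adjusted p = 0.0247, rho = 0.68, p = 0.00408, adjusted p = 0.0224), and 0.48 without the 2 farthest arrays (permutation p = 0.0497). In neocortex Mt1 and Mt2 showed no such relation (r = -0.36, permutation p = 0.196, adjusted p = 0.438, rho = -0.25, p = 0.359, adjusted p = 0.564, r = -0.04 without the 2 farthest).

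Mt3 in neocortex deviated with Mt2 (r = 0.60, permutation p = 0.00609, adjusted p = 0.0247, rho = 0.64, p = 0.00952, adjusted p = 0.0349, r = 0.55 without the 2 farthest arrays). This is the opposite sign to their differences between diets and controls, where Mt2 was higher and Mt3 lower. With Mt1 the relation of Mt3 did not pass (r = -0.33, permutation p = 0.239, adjusted p = 0.438, rho = -0.40, p = 0.144, adjusted p = 0.396, r = -0.42 without the 2 farthest). Probe sets read from 1 array share its RNA and labelling. Between tissues, at the same group and replicate number, none of 6 relations of Mt1 or Mt2 passed (r from -0.17 to 0.33, lowest permutation p = 0.239, lowest adjusted p = 0.438). The labels do not say whether a number stands for the same animal in each tissue.

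**Figure D3:**
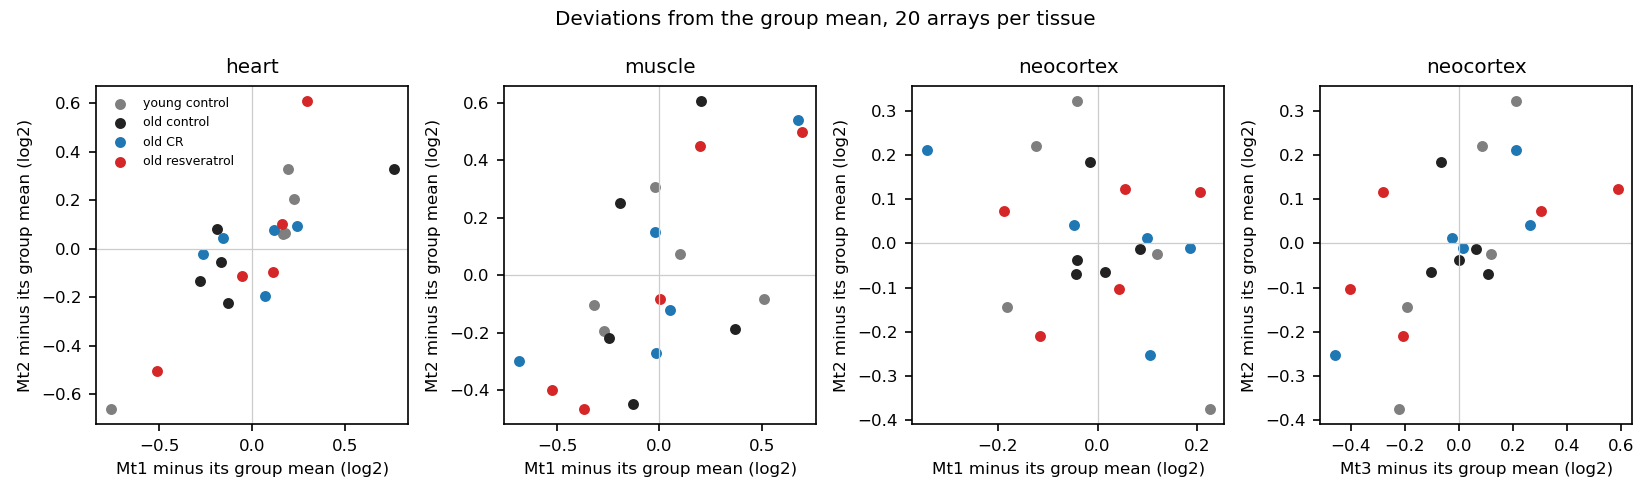
Deviation of each array from the mean of its group, in log2 units, with 1 point per array and 20 arrays per panel, coloured by group. From left to right, Mt2 is set against Mt1 in heart (r = 0.81), muscle (r = 0.65) and neocortex (r = -0.36), and against Mt3 in neocortex (r = 0.60).

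The genes whose log2 signal followed Mt1 most closely over the 20 arrays differed by tissue, and the correlations are given as a description. In heart they were Tsc22d3, a glucocorticoid-induced leucine zipper protein (r = 0.84), the sulfotransferase Sult1a1 (0.81), Fry (0.79), Fgf13 (0.78) and the potassium channel Kcna5 (0.78), and Mt2 had 0.75. In muscle Mt2 itself was the closest of 12830 genes (0.91), before Acer2, an alkaline ceramidase (0.86), Pank1, a pantothenate kinase of coenzyme A synthesis (0.86), Taf5 (0.85), the lipid droplet protein Plin4 (0.84) and Dda1 (0.84). In neocortex they were Meig1 (0.75), Hars2 (0.71), Nup133 (0.69), Rnf135 (0.67) and Trmt112 (0.67), and Mt2 had 0.05. All these correlations include the differences between groups, which chose the family. Within groups alone, those with Mt1 in muscle were 0.645 for Mt2 and from 0.46 for Dda1 to 0.60 for Plin4. For the named genes other than Mt2 they ran from 0.69 to 0.85 in heart and from 0.62 to 0.78 in neocortex.

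The closest genes to Mt3 in neocortex were Ubl7 (r = 0.98), Actl6b, a neuronal chromatin remodelling subunit (0.97), Phyhip (0.97), the clathrin adaptor subunit Ap2a1 (0.97) and Cnih2, an auxiliary subunit of AMPA receptors (0.97). Their differences under CR ran from -1.19 for Actl6b to -1.56 for Cnih2 and under resveratrol from -1.11 for Phyhip to -1.26 for Ubl7, each smaller than those of Mt3. Within groups alone the correlations with Mt3 were 0.84 for Ubl7, 0.63 for Actl6b, 0.62 for Phyhip, 0.62 for Ap2a1 and 0.45 for Cnih2.

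Markers of astrocytes and neurons, the cells that make Mt3, were examined in neocortex. Of 11 astrocyte genes, 2 rose and 4 fell under CR and 3 rose and 2 fell under resveratrol. Among all neocortex genes 13.1% rose and 17.5% fell under CR, and 12.3% rose and 13.9% fell under resveratrol. These shares apply to the neuronal genes too, and nothing is read from the counts. The filament protein gene Gfap fell by 1.84 under CR (adjusted p = 5.27e-07) and by 1.17 under resveratrol after a rise of 1.76 with age, and the transcription factor gene Sox9 fell by 1.28 and 1.01. The connexin genes Gjb6 and Gja1 rose by 0.91 and 0.56 under CR. The summed astrocyte signal was 49540 to 56039 in old controls, 48208 to 56367 under CR and 52439 to 60058 under resveratrol. Of 7 neuronal genes, 2 fell under CR, the vesicular glutamate transporter gene Slc17a7 (-0.95) and Nrgn (-0.81), and 4 fell under resveratrol, with sums of 82674 to 98853 in old controls, 80110 to 93118 under CR and 76394 to 89089 under resveratrol.

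Genes of metal response and zinc transport moved in both directions under the diets, as genes over all did. Nothing is read from the counts of this list. Of 19 tested in heart, 2 rose and 4 fell under CR and 1 rose and 3 fell under resveratrol, with medians of -0.07 and -0.00 against 0.00 and 0.01 for all genes. Of all genes in heart 7.94% rose and 14.1% fell under CR, and 7.08% rose and 10.5% fell under resveratrol. Mtf1, which encodes the metal-sensing factor MTF-1, fell under resveratrol from 651 ± 93.5 to 354 ± 102, which is -0.93 (SE 0.22, limma adjusted p = 0.00365). It also fell in muscle by 0.64 under CR and by 0.63 under resveratrol. The zinc importer gene Slc39a10 rose with age in heart by 1.03 and fell under CR by 1.33 (SE 0.17, adjusted p = 3.38e-06) and under resveratrol by 0.89. Slc39a7, an importer into the cytosol from the secretory pathway, fell by 0.95 in heart and by 0.94 in muscle under CR. The zinc exporter gene Slc30a1, a known target of MTF-1, passed in no tissue under either diet (-0.35 to 0.13).

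In muscle 3 of 19 rose and 4 fell under CR and 2 rose and 2 fell under resveratrol (medians 0.01 and -0.05 against 0.10 and 0.07 for all genes). Of all genes in muscle 17.5% rose and 13.6% fell under CR, and 9.42% rose and 9.26% fell under resveratrol. Slc30a3, which in neurons loads zinc into synaptic vesicles, rose there by 1.15 under CR (SE 0.22, adjusted p = 0.000631) and by 0.77 under resveratrol. In neocortex 2 of 21 rose and 4 fell under CR and 2 rose and 3 fell under resveratrol (medians -0.09 and -0.02 against -0.03 and -0.01). Of all genes in neocortex 13.1% rose and 17.5% fell under CR, and 12.3% rose and 13.9% fell under resveratrol. Slc30a4 rose by 0.47 under CR and 0.51 under resveratrol, and Slc39a13 fell by 0.67 under CR. With age 1 of these genes rose and 2 fell in heart. In muscle and neocortex 0 passed with age by limma or by the test of the study's methods after adjustment, while 2 and 4 had an unadjusted p under 0.05. Between the diets Slc39a7 was higher under resveratrol in heart (0.56), and this call was lost without single arrays.

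Of the copper handling genes, 5 of 14 rose under CR in neocortex, where 13.1% of all genes rose, and 4 under resveratrol, where 12.3% did, and 0 fell. Cox11, a copper chaperone of cytochrome oxidase, rose by 0.42 and 0.33, the superoxide dismutase gene Sod1 by 0.38 and 0.32, and the copper importer gene Slc31a1 by 0.41 and 0.42. In heart 3 of 16 rose and 3 fell under CR and 2 rose and 1 fell under resveratrol. Of all genes in heart 7.94% rose and 14.1% fell under CR, and 7.08% rose and 10.5% fell under resveratrol. The metalloreductase gene Steap3 rose by 1.34 and 1.03, and Slc31a1 by 1.03 under resveratrol, while Cox17 fell by 0.70 and 0.33. In muscle 1 of 16 rose under CR, against 17.5% of all genes, and 2 under resveratrol, against 9.42%, and nothing is read from these counts. They were Cox17, by 0.53 and 0.52, and Cox19, by 0.44 under resveratrol. The median over the list was 0.14 in heart, 0.24 in muscle and 0.18 in neocortex under CR, against 0.00, 0.10 and -0.03 for all genes.

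Of the lists of known inducers of Mt1 and Mt2, glucocorticoid receptor targets held the highest share of rising genes under CR. Under resveratrol in muscle the interleukin 6 and acute phase list held a higher share, with 5 of 14 rising against 5 of 17. Of all genes 7.94% rose in heart, 17.5% in muscle and 13.1% in neocortex under CR, and 7.08%, 9.42% and 12.3% under resveratrol. The lists were chosen with earlier results known, and their part in the levels of Mt1 and Mt2 was not tested. The glucocorticoid list holds Tsc22d3 and Sult1a1, which rank 1 and 2 by likeness to Mt1 in heart. No cause is read from the order of the lists. In heart 15 of 18 rose and 1 fell under CR with a median of 0.98 (all genes, 0.00), and 5 rose under resveratrol with a median of 0.28. In neocortex 13 of 17 rose and 1 fell under CR (median 0.61), and 10 rose and 1 fell under resveratrol (0.30). In muscle 9 of 17 rose and 3 fell under CR (0.62), and 5 rose and 2 fell under resveratrol (0.22). Zbtb16, a zinc finger gene, rose by 2.16 in heart (SE 0.32, adjusted p = 2.27e-05) and by 1.41 in neocortex under CR. The kinase gene Sgk1 rose in neocortex from 2482 ± 213 to 6796 ± 707 under CR (1.45, adjusted p = 1.17e-06) and by 0.81 under resveratrol.

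In muscle Ddit4, an inhibitor of mTOR signalling, rose by 3.34 under CR (SE 0.29, adjusted p = 1.95e-07) and by 1.72 under resveratrol, and the kinase gene Pdk4 by 3.29 and 1.94. The co-chaperone gene Fkbp5 rose in neocortex by 0.95 under CR, and its 0.19 under resveratrol did not pass. The diets differed directly. Resveratrol minus CR was negative and passed for 5 of 18 genes in heart, 2 of 17 in muscle and 6 of 17 in neocortex, and was positive for 1 gene in neocortex. Pdk4 in heart differed by -2.92 (adjusted p = 7.33e-06) and Fkbp5 by -1.29. Nr3c1, the receptor gene, fell by 0.48 in heart and by 0.75 in muscle under CR. Tsc22d3, closest to Mt1 in heart, rose there under CR by 0.82 and fell in muscle by 0.71. The median of this list exceeded that of all genes in each tissue under both diets.

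**Figure D4:**
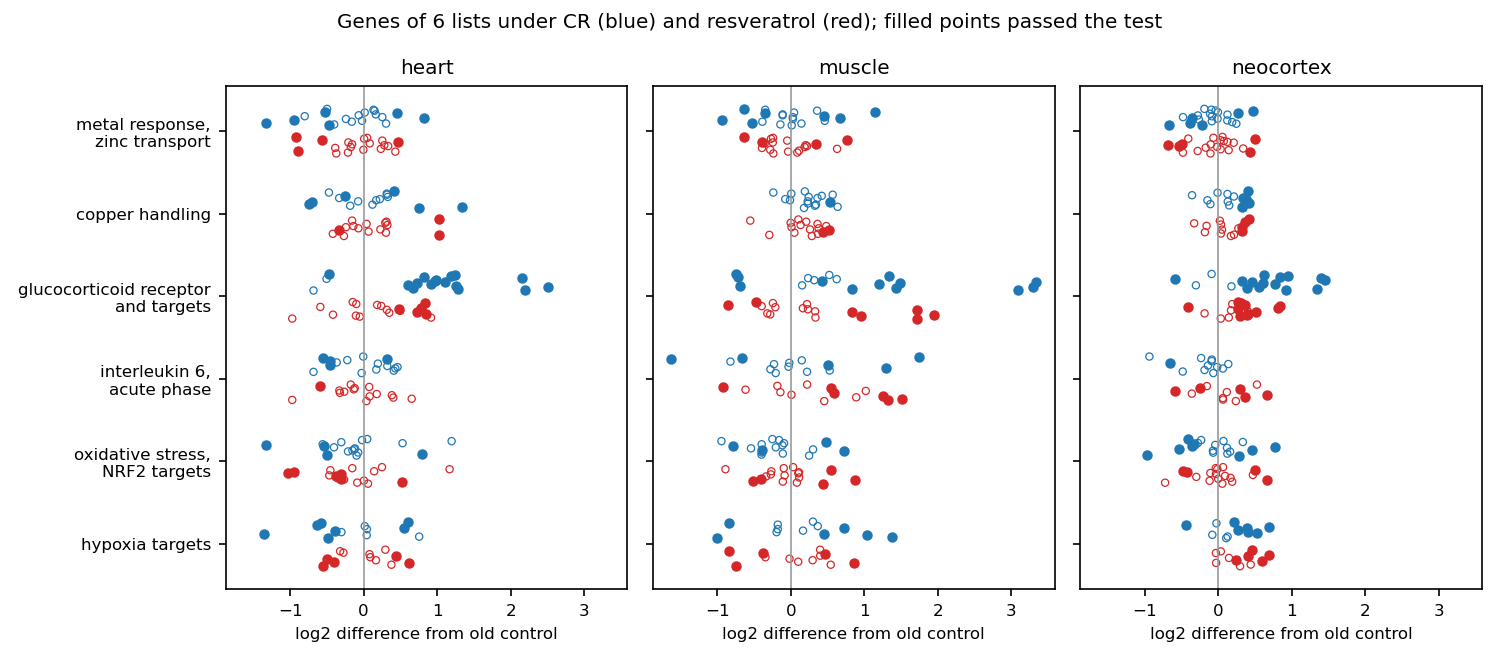
Log2 difference from old controls of each tested gene in 6 lists, under CR (blue, upper row of a list) and resveratrol (red, lower row), by tissue. Filled points passed at an adjusted p under 0.05 by limma. The genes of the glucocorticoid list lie mostly to the right under CR, with 15 of 18 rising in heart, where 7.94% of all genes rose. The genes of metal response and zinc transport lie on both sides. The part of these lists in the levels of Mt1 and Mt2 was not tested.

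The shares of all genes given above apply to the lists that follow, and nothing is read from their counts. Interleukin 6 and acute phase genes gave 1 rise and 3 falls of 15 in heart under CR, 3 rises and 2 falls of 14 in muscle, and 1 fall of 12 in neocortex. Under resveratrol 1 of 15 fell in heart, and 3 of 12 rose and 2 fell in neocortex. Stat3, which carries the interleukin 6 signal to the nucleus, fell in neocortex by 0.65 under CR (SE 0.09, adjusted p = 1.79e-05) and by 0.59 under resveratrol, and in heart by 0.46 under CR. In muscle 5 of 14 rose and 1 fell under resveratrol, and the acute phase genes Hp and Saa3 rose by 1.33 and 1.51, while the kinase gene Jak1 fell by 1.63 under CR and 0.93 under resveratrol.

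Among oxidative stress genes and targets of NRF2, 7 of 17 rose with age in heart, where Srxn1, a sulfiredoxin, rose by 1.15 and fell by 1.33 under CR (SE 0.18, adjusted p = 1.01e-05) and by 1.04 under resveratrol. Under CR 1 rose and 3 fell in heart, 2 rose and 2 fell of 17 in muscle and 3 rose and 5 fell of 18 in neocortex. Under resveratrol 1 rose and 6 fell, 3 rose and 2 fell, and 2 rose and 2 fell, in the same order. Catalase (Cat) rose in muscle by 0.73 and 0.87. Of hypoxia targets, 2 of 12 rose and 5 fell in heart under CR, 4 of 12 rose and 2 fell in muscle and 6 of 11 rose and 1 fell in neocortex. Under resveratrol 2 of 12 rose and 3 fell in heart and likewise in muscle, while in neocortex 5 of 11 rose and 0 fell, with a median of 0.30 against -0.01 for all genes. The prolyl hydroxylase gene Egln3 fell in heart by 1.35 under CR, the carbonic anhydrase gene Car9 rose in muscle by 1.37 and the glucose transporter gene Slc2a1 rose in neocortex by 0.70.

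The genes beside the cluster were compared as well. Of the 3 nearest genes on each side (Nudt21, Ogfod1, Bbs2, Nup93, Slc12a3 and Herpud1), 5 were tested in heart, 4 in muscle and 5 in neocortex. Herpud1, of protein degradation at the endoplasmic reticulum, rose under CR in heart by 1.24 (SE 0.11, adjusted p = 3.88e-08) and in neocortex by 0.39, while in muscle it gave -0.07 and did not pass. Nup93, a nuclear pore gene and the nearest to Mt1, fell in muscle by 0.73 under CR and by 0.60 under resveratrol, where Mt1 and Mt2 were higher. In neocortex Nudt21 rose by 0.22 under CR, and the nearest gene to the cluster on the side of Mt3, Bbs2, gave -0.09 under CR and -0.27 under resveratrol and did not pass.

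Mt4, the metallothionein of stratified epithelia, was dim and below the signal minimum on average in all tissues, and its array values ran from 2.37 to 127 except in muscle, where old control replicate 1 read 133, CR replicate 1 read 313 and resveratrol replicate 5 read 1158. The skin keratin genes Krt5 and Krt10 were highest on the same 3 arrays. Krt5 read 1601, 1315 and 1623 on them, against 68.7 to 263 on the other 17 arrays, and Krt10 read 4962, 3724 and 4829, against 413 to 958. A further skin keratin gene, Krt14, was not raised there, with 59.2, 107 and 129 against 22.7 to 149. Without the 3 arrays the differences in muscle were 1.35 for Mt1 and 1.51 for Mt2 under CR and 0.82 and 1.22 under resveratrol, an alternative chosen after seeing the data.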

How the data were processed

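Total RNA of 20 hearts, 20 gastrocnemius muscles and 20 neocortices was hybridised to 60 Affymetrix arrays, with 5 for each group of a tissue. The authors converted the intensities to linear signals with GCOS 1.2 before they were deposited, and the deposited intensity values have a 2% trimmed mean of 500 on each array. The annotation build of the arrays is not given in the sources used here, and scan dates were not used here.

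Signals under 1 were set to 1 and taken to log2. Where several probe sets share a gene, the brightest by mean log2 signal stood for it. Tests in a tissue were limited to genes at or above the 40th percentile of mean log2 signal there, which was a signal of 60.4 (heart), 69.3 (muscle) or 57.3 (neocortex). Groups were fitted with limma 3.58.1 (lmFit, eBayes with trend) in R 4.3.3, with adjustment by the method of Benjamini and Hochberg. The fit was tested on simulated data. The members, the 6 pathway lists and the 13 cell type lists were chosen with earlier results of these data known. Named genes are the members, Mt4, up to 4 genes per list and comparison with the largest change among those that passed, the 5 genes most like Mt1 in each tissue and Mt3 in neocortex, and the 3 nearest neighbours on each side. The receptor gene Nr3c1, Slc30a1, Alb, Pecam1, the neural markers, the keratin genes and further values of genes named elsewhere were chosen after their values were seen. On the array, 18 of 21 NRF2 genes and the other 5 pathway lists in full were found. Alternatives were quantile normalization, an offset of 16, no filter or the 60th percentile, no trend, the 2 groups alone, all probe sets, the brightest by linear signal, Student's test of the study's methods, a replicate block and arrays left out. The number of arrays limits the precision, and p values measure the spread between mice as labelled. Python 3.11.15, numpy 2.4.6, pandas 2.3.3 and matplotlib 3.10.9 were used.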

Additional observations from a re-analysis of the deposited data

Results flagged for a closer look

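Of 60 groups of 5 arrays examined, over 5 probe sets of Mt1 to Mt4, chance alone would single out about 1 in 20. Mt1 in heart read 8570.3 in young control replicate 1 and 27816 in old control replicate 4, each far from the other 4 arrays of its group. Mt2 in heart read 979.9 in the same young control array. Mt2 in neocortex read 2639 in old control replicate 1, against 2212 to 2302 on the others, and Mt4 in heart read 118 in young control replicate 4. Leaving out the 2 heart arrays turned the age difference of Mt1 from 0.18 to -0.21 and brought its difference under CR from 0.36 to 0.55.

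Between young and old controls Mt2 moved in opposite directions in muscle (0.78), where each old array was above the young mean, and in neocortex (-0.24), where each old array was below it. This difference between tissues was not tested.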

How the results depend on the processing

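Of the member differences, 418 stayed within the spread of arrays under other settings and 6 moved, none of them for Mt2 or Mt3. Representing each gene by its brightest probe set on the linear scale, tried first and replaced after the data were seen, left 13197, 12733 and 13043 genes to test in heart, muscle and neocortex and changed no member call. With the mean of all probe sets Mt1 in heart gave -0.60 with age, 0.86 under CR and 0.75 under resveratrol, and in neocortex 0.22 and 0.38 with age and under CR, and without the 2 outlying arrays it gave -0.21 with age in heart. The number of members past the threshold of the fit over all genes is a description too, since their differences chose the family. Under CR in heart it was 2 without these arrays. Under resveratrol in heart it was 0 by the methods' t-test on unlogged signal, at 0.01 and after adjustment. Under resveratrol in muscle it was 1 when all probe sets were averaged and by that t-test on log2 or unlogged signal, at 0.01 and after adjustment. With age in muscle it was 1 by the t-test on log2 signal at 0.01. With 1 array left out, the count ran from 1 to 2 under CR in heart (2 without old control replicate 4, where Mt1 gave 0.55), from 1 to 2 under resveratrol in muscle (1 without resveratrol replicate 3 or 4, where Mt1 gave 0.74 and 0.62) and from 0 to 1 for resveratrol minus CR in neocortex (1 without resveratrol replicate 1, where Mt3 gave 0.50).

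With the replicate number as a block, Mt2 passed with age in muscle (0.78), so that 1 member passed there and no other member call changed. Deviations of arrays with the same number in different groups of a tissue correlated at -0.04 to 0.07 in heart, -0.20 to 0.15 in muscle and -0.16 to 0.17 in neocortex. Their medians were 0.007, 0.013 and 0.030, against -0.003, 7.4e-05 and -0.012 for arrays of different numbers. This check stays within a tissue, so it cannot tell whether a number stands for the same animal across tissues.

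The within-group correlation of Mt1 and Mt2 fell to 0.22 in heart and 0.21 in muscle with the dim probe set of Mt1, and was 0.69 and 0.62 without the outlying arrays of both tissues, which no longer passed after adjustment. That of Mt3 and Mt2 was 0.45 from group medians and did not pass. With 1 array left out it ran from 0.56 to 0.71 for Mt1 and Mt2 in muscle, where 5 of 20 did not pass, and from 0.52 to 0.69 for Mt3 and Mt2, where 3 of 20 did not.

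Counts of metal response and zinc transport genes were small and moved easily. With age in heart 1 passed with all probe sets and by the adjusted t-test on log2 or unlogged signal, instead of 3. For resveratrol minus CR in heart 0 passed without the trend and by both adjusted t-tests, and 0 to 1 with 1 array left out. Under CR in muscle 4 instead of 7 passed without the 2 keratin arrays (old control replicate 1 and resveratrol replicate 5), and 4 to 7 with 1 array left out. Copper handling genes there numbered 1, and 0 to 4 under the settings other than leaving out 1 array. Under resveratrol in muscle 2 instead of 4 passed with quantile normalization, no filter, no trend and the t-test on log2 signal in both forms, 1 without the 2 or 3 keratin arrays and 1 to 4 with 1 array left out. With age, 0 to 1 passed in muscle with 1 array left out, and 1 in neocortex by either t-test at 0.01. For resveratrol minus CR, 1 passed in muscle by the t-test on log2 signal at 0.01 and 1 in neocortex by either t-test at 0.01. Under CR in neocortex 3 to 8 passed with 1 array left out. The causes were not tested.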
